A study of Saccharomyces cerevisiae with 4 samples.

Results

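MUP1 (YGR055W) and MUP3 (YHL036W) are the methionine permease genes of the budding yeast Saccharomyces cerevisiae. They are 2 of the 6260 open reading frames (ORFs) on the arrays, picked by their systematic names, and both were measured on all 4 arrays. They were chosen because their values on these arrays have opposite signs in different deletion strains, so those values are described here and not tested.

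Mup1 is the high-affinity methionine permease of the plasma membrane, and Mup3 is a related permease of low affinity. Mup1 also carries cysteine. MUP1 belongs to the sulfur genes under the activator Met4, which does not bind DNA on its own and reaches promoters through Cbf1 or through the paralogous zinc-finger proteins Met31 and Met32, with Met28 as a cofactor. Met4 is held back by the ubiquitin ligase SCF-Met30 when methionine is plentiful. When methionine is added, Mup1 protein is also ubiquitinated by Rsp5 with its adaptor Art1 (gene LDB19) and taken into the cell, a step that transcript arrays do not see.

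Each array set RNA of a strain labelled as lacking 1 transcription factor gene against wild-type RNA, labelled with Cy3 or Cy5. The strains are met28, cbf1, met31 and met32. The second channel is wild type for met31 and met32 and "wt+met", read here as wild type with methionine, for met28 and cbf1. Per the labels, all strains were grown from colonies on YPD plates with the antibiotic G418, in the defined medium YNB at 30 °C to an OD600 of 0.8 to 1.0. The labels do not give the strain background, the deletion alleles, or how much methionine was added and to which cultures. Each strain has 1 column of values, so there is no spread between replicates, no standard error and no p-value for any difference below. Strain and kind of reference cannot be told apart between met28 or cbf1 on one side and met31 or met32 on the other.

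The values are signed and were taken as log ratios of the channels. The sources used here give neither their log base nor their direction. An exact 0 was treated as not measured. As a rule of size, the tails of an array are the 2.5% of its measured ORFs with the highest and the 2.5% with the lowest values, and the robust SD (from the median absolute deviation over ORFs) gives the width of an array. Deletion strain over wild type is the likely direction for 3 arrays, since MET28 was the lowest of 5242 measured ORFs on the met28 array (-1.294), CBF1 the fourth lowest of 5383 on cbf1 (-0.995) and MET31 the fifth lowest of 5893 on met31 (-0.32). MET32 itself had a value of 0.012 on the array labelled met32, which gave no sign of its deletion and leaves the direction open. Wherever met32 is named below, the array with that label is meant, with its values as deposited.

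MUP1 was at 0.933 on the met28 array, at 0.929 on cbf1, at -0.684 on met31 and at -0.042 on the array labelled met32. Read in the likely direction, MUP1 thus lay above the reference in the strains without MET28 or CBF1 and below it in the strain without MET31. Its value on the met32 array was near 0. On the cbf1 array it was the highest of all 5383 measured ORFs, and on the met31 array the lowest of all 5893. On the met28 array 8 of 5242 measured ORFs were higher. On the met32 array 1478 of 5882 measured ORFs were lower.

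MUP3 was at 0.407 on the met28 array, at 0.141 on cbf1, at -0.142 on met31 and at -0.057 on the array labelled met32. It had the signs of MUP1 on all 4 arrays, and lay closer to 0 on the first 3. On the met28 array it was in the highest 2.5%, with 51 ORFs above it. On the met31 array it was in the lowest 2.5%, with 94 ORFs below it. On the cbf1 array 6.65% of the measured ORFs were higher, so its positive value there lay outside the tail, which began at 0.207.

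The background to these calls is set by the rule: 2.52% of the measured ORFs lay in the high tail on met28, 2.51% in that of cbf1 and 2.55% in the low tail on met31. Both members were in the high tail on met28, MUP1 alone on cbf1, both in the low tail on met31, and neither was in a tail on met32. Since the members were chosen on these values, nothing is read from the counts. Of all measured ORFs, 50.7% were above 0 on met28 and 37.1% on cbf1, and 51.7% were below 0 on met31. The sign of MUP3 on cbf1 is therefore that of the smaller share of ORFs on that array, whose measured values had a median of -0.034. On met32, 51.2% of the measured ORFs were below 0, as both members were.

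**Figure D1:**
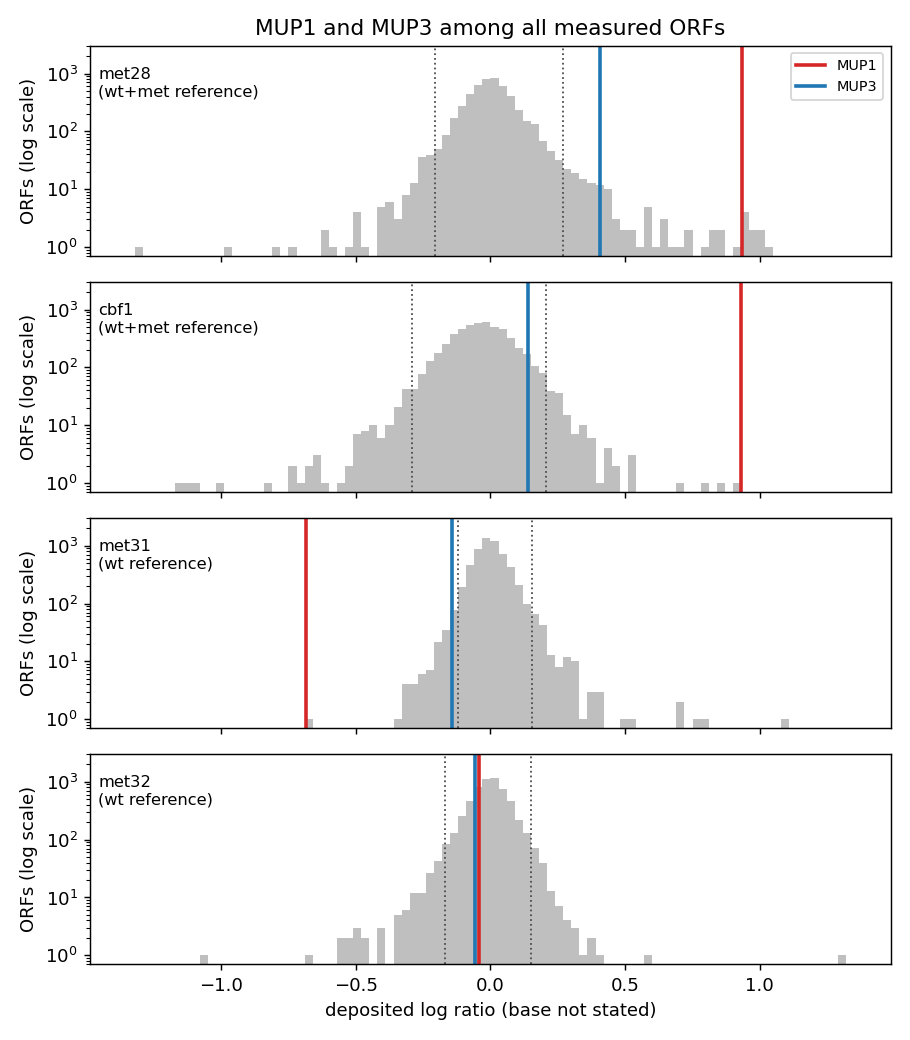
Histograms of the deposited log ratios of all measured ORFs on each of the 4 arrays (x axis, log base not stated; y axis, number of ORFs on a log scale), with MUP1 and MUP3 as coloured lines and the tail limits as dotted lines. MUP1 lies at the right end on met28 (0.933) and cbf1 (0.929) and at the left end on met31 (-0.684), while MUP3 lies past the tail limits on met28 and met31 and inside them on cbf1.

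What these values are as ratios depends on the log base, and upward or downward on the likely direction given above. Read as log10, MUP1 differed from its reference 8.57-fold on met28 and 8.49-fold on cbf1, both upward, and 4.83-fold downward on met31. Read as log2, the same values are 1.91-fold, 1.90-fold and 1.61-fold. MUP3 would be 2.55-fold higher on met28 on a log10 scale and 1.33-fold on a log2 scale. Its ratio would be 1.38-fold upward on cbf1 and 1.39-fold downward on met31 on a log10 scale, and 1.10-fold each way on a log2 scale. The signs and ranks do not depend on the base.

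The arrays also differ in width. The robust SD was 0.110 on cbf1, 0.0778 on met28, 0.0608 on met32 and 0.0519 on met31. In these units, with the arrays in the order met28, cbf1, met31, met32, the respective MUP1 values were 12.0, 8.47, -13.2 and -0.69. By this measure the negative value on met31 was farther from 0 than either positive value, although it is smaller as deposited. MUP3 was at 5.23, 1.29, -2.74 and -0.94 robust SDs in that order. Its value on cbf1 and its value on met31 have nearly the same size as deposited, and differ in these units because the cbf1 array is wider.

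MUP1 exceeded MUP3 by 0.526 on met28 and by 0.788 on cbf1, and lay below it by 0.542 on met31. These are differences between log ratios and say nothing of which transcript is more abundant, which these values cannot show. As a ratio of the deposited values, MUP1 was 2.29 times MUP3 on met28, 6.59 times on cbf1 and 4.82 times on met31. The smaller factor on met28 reflects the higher MUP3 value there, since the MUP1 values on met28 and cbf1 differ by 0.004. On the array labelled met32 the members differed by 0.015.

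In the order of its values over the arrays, MUP1 was high on met28 and cbf1, close to 0 on met32 and low on met31. The step of 1.617 from met31 to met28 was the largest difference between those arrays in the high direction among 5153 ORFs measured on both, and the step of 1.613 from met31 to cbf1 was the largest among 5308. Between the arrays with plain wild type as reference, MUP1 was lower on met31 than on met32 by 0.642, the most negative difference of 5528 ORFs as deposited. With exact zeros counted as values, 1 ORF was lower. That contrast does not involve the wt+met reference, but rests on an array whose direction is unsettled. With the met32 sign turned, the difference is -0.726, and 1 ORF was lower. Over the 4661 ORFs measured on all 4 arrays, the median of highest minus lowest value was 0.154, and MUP1 had the largest such range of all, ahead of MET28 (1.538), a deleted gene on its own array.

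MUP3 had 4 levels that were more evenly spread. It was higher on met28 than on cbf1 by 0.266, with 348 of 5032 ORFs showing a larger difference, and higher on met28 than on met31 by 0.549, with 27 of 5153 ORFs above. From met31 to cbf1 the step was 0.283, with 50 of 5308 ORFs above. Its met31 and met32 values differed by 0.085, and 777 of 5528 ORFs were more negative. With the met32 sign turned, that difference is -0.199, and 175 ORFs were more negative. Its range of 0.549 over the arrays was 54th of 4661 ORFs.

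**Figure D2:**
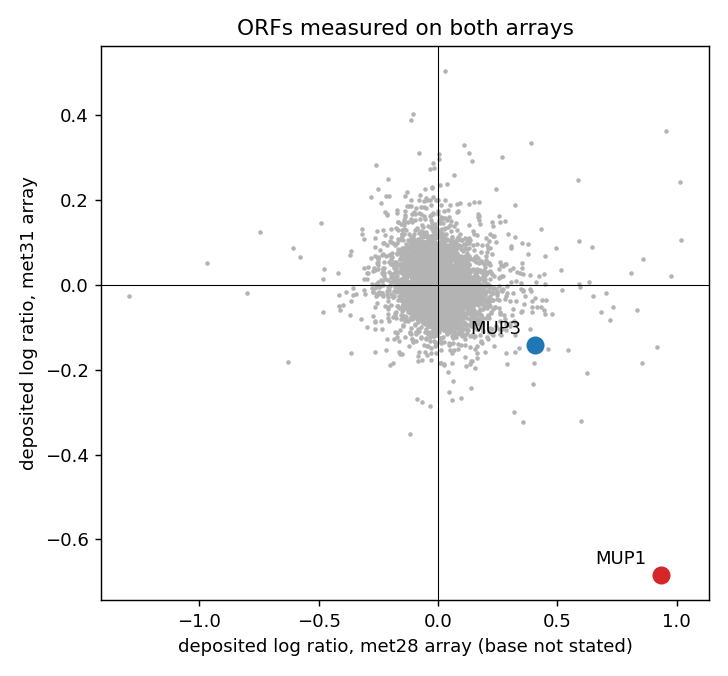
Deposited log ratios on the met28 array (x axis) and the met31 array (y axis), log base not stated, with 1 grey point for each of the 5153 ORFs measured on both. MUP1 (0.933 and -0.684) stands apart at the lower right, and MUP3 (0.407 and -0.142) lies in the same quadrant nearer the bulk.

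The deposited values of the other sulfur amino acid permease genes were set beside those of MUP1 and MUP3. The list holds MMP1, SAM3, AGP1, AGP3, YCT1, BAP2, BAP3 and GNP1. On met28, 4 of the 5 measured genes were in the high tail, which held 2.52% of all measured ORFs. The list median there was 0.591 against 0.0015 over all measured ORFs. On cbf1, 3 of 6 were in the high tail (2.51% of all measured ORFs), with a median of 0.19 against -0.034. On met31, 2 of 7 were in the low tail (2.55% of all measured ORFs) and 1 in the high tail (2.51%). The median there was 0.079 against -0.002. On met32, 0 of 7 were in a tail, against 2.58% of all measured ORFs in the high and 2.52% in the low tail, and the median was 0.041 against -0.002.

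MMP1, the S-methylmethionine permease gene, was at 0.919 on met28, 0.699 on cbf1 and -0.146 on met31, and at 0.046 on met32. SAM3, the S-adenosylmethionine permease gene, was at 0.357, 0.281, -0.324 and -0.016 in the same order. Both had the sign change of MUP1 and were in the tails on the first 3 arrays. AGP3, a broad amino acid permease gene, was at 1.018, 0.514, 0.106 and -0.018, and YCT1, the cysteine transporter gene, at 0.591, 0.098, 0.104 and 0.071. AGP3 and YCT1 were thus positive on met28 and cbf1 but also positive on met31, unlike MUP1 and MUP3. On met31 they were in no tail, and 48.3% of all measured ORFs were above 0 there. Both were in the high tail on met28, and AGP3 but not YCT1 on cbf1.

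Among the broad permease genes whose products also carry methionine, AGP1 was measured on all 4 arrays, but BAP2, BAP3 and GNP1 on fewer. AGP1 was at 0.017 on met28, -0.112 on cbf1 and -0.019 on met31, and at 0.041 on met32, in no tail. BAP2, a branched-chain amino acid permease gene, was measured only on met31, where it was in the high tail at 0.216, opposite to MUP1. Its paralog BAP3 was at 0.041 on cbf1, 0.079 on met31 and 0.062 on met32, and an array cannot be assumed to tell these similar genes apart. The glutamine permease gene GNP1 was measured only on met32, at 0.037.

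**Figure D3:**
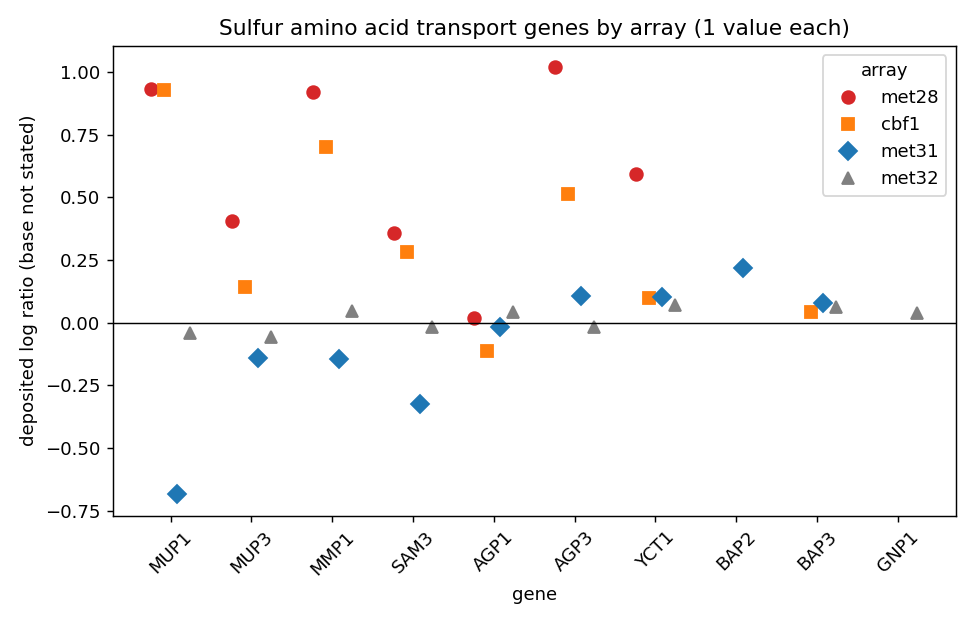
Deposited log ratio (y axis, base not stated) of each sulfur amino acid transport gene (x axis), with 1 point for each array on which it was measured. MUP1, MUP3, MMP1 and SAM3 are positive on met28 and cbf1 and negative on met31, while AGP3 and YCT1 are positive on all 3.

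Permease genes for other amino acids had tail members on met28, cbf1 and met31. On met28 all 8 measured were above 0, against 50.7% of all measured ORFs, and 2 were in the high tail, which held 2.52%. These were the tyrosine and branched-chain amino acid permease gene TAT1 at 0.516 and AGP2, which encodes a permease-like protein of the plasma membrane, at 0.362. On cbf1, 1 of 7 was in the low tail (2.51% of all measured ORFs), the lysine permease gene LYP1 at -0.3. On met31, 1 of 11 was in the low tail (2.55% of all measured ORFs), the proline permease gene PUT4 at -0.252. On met32 none of the 10 measured was in a tail, against 2.58% of all measured ORFs in the high and 2.52% in the low tail. The medians were 0.0445 on met28, 0.011 on met31, 0.001 on cbf1 and -0.022 on met32.

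Genes that make methionine inside the cell were set beside its permeases. Of 13 listed genes of methionine synthesis and the methyl cycle, none was in a tail on met28, met31 or met32. On cbf1 only MET2, the homoserine O-acetyltransferase gene, was in a tail, at -0.348 in the low tail (2.51% of all measured ORFs). With about 2.5% of all measured ORFs in each tail, counts this low among 13 genes are near the background. MET17, which encodes the enzyme that fixes sulfide into homocysteine, was at 0.076 on met28, -0.248 on cbf1 and -0.115 on met31. MET12, a methylenetetrahydrofolate reductase gene, was at 0.176 on cbf1, and HOM3, the aspartate kinase gene, at 0.128. The list's medians were between -0.016 and 0.036 on the 4 arrays.

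On met28 9 of 9 measured sulfate genes were below 0, against 49.3% of all measured ORFs, and on cbf1 8 of 10, against 62.9%. On each of these arrays, where MUP1 was high, 7 of them were in the low tail, which held 2.54% of all measured ORFs on met28 and 2.51% on cbf1. The sulfate permease genes SUL1 and SUL2 were at -0.745 and -0.801 on met28, and at -1.119 and -0.644 on cbf1. MET16, the reductase gene for activated sulfate, was at -0.576 and -0.711, and MET22, a nucleotide phosphatase gene, at -0.362 and -0.676. On met31, where MUP1 was the lowest ORF, none of 9 sulfate genes was in a tail. The high tail there held 2.51% and the low tail 2.55% of all measured ORFs, so none among 9 genes is near the background. Of the 9 sulfate genes, 6 were below 0, as 51.7% of all measured ORFs were, with a list median of -0.027, and SUL1 was at 0.124.

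A further list held 4 genes that convert homocysteine to cysteine (CYS3 and CYS4) or cysteine to homocysteine (STR2 and STR3). STR2 and STR3 thus act toward methionine, but were not in the methionine synthesis list above. STR3, the cystathionine beta-lyase gene, was the one with the MUP1 pattern, at 0.857 on met28, 0.79 on cbf1 and -0.185 on met31. CYS3, the cystathionine gamma-lyase gene, was at 0.226, 0.086 and -0.018, in no tail. CYS4, the cystathionine beta-synthase gene, was at 0.016, -0.073 and -0.047, also in no tail. STR2, the cystathionine gamma-synthase gene, was at 0.213 on cbf1, just inside the high tail, which began at 0.207. On met31 it was at 0.118, in no tail. Of the list, 1 of 3 measured genes was in the high tail on met28 (2.52% of all measured ORFs) and 2 of 4 on cbf1 (2.51%). With tails of 1%, the count on cbf1 was 1. On met31, 1 of 4 was in the low tail (2.55%).

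Of the Met4 system's own genes, MET31 was at 0.598 in the high tail on met28 and MET28 at 0.244 in the high tail on cbf1. These were 1 of 5 measured genes on met28 and 1 of 4 on cbf1, against 2.52% and 2.51% of all measured ORFs. The measured genes include the gene deleted on that array, which was in the low tail. These were MET28 at -1.294 on met28 and CBF1 at -0.995 on cbf1. MUP1 was high on both arrays. MET4 was listed at 0 on met28, cbf1 and met31. MET30 was at 0.099, 0.042 and 0.012 on these arrays, in no tail. CBF1 was at 0.019 on met28 and -0.021 on met31. On met32, where MUP1 was in no tail, CBF1 was at 0.154 in the high tail (2.58% of all measured ORFs).

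Genes whose products act on permeases at the membrane were also examined. The list holds RSP5, the adaptor genes LDB19, ECM21, BUL1 and BUL2, and the membrane domain genes PIL1, LSP1 and NCE102. None of the 8 was in a tail on met28, cbf1 or met31, and none of 7 measured on met32. Each tail holds about 2.5% of all measured ORFs, so a count of 0 among so few genes is near the background, and 1 of them came into the high tail on cbf1 with tails of 5%. LDB19 was at 0.12 on met28, -0.014 on cbf1 and -0.007 on met31. The largest values were on the wide cbf1 array, with ECM21 at -0.227, BUL1 at 0.163 and BUL2 at -0.123.

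The ORFs directly beside the members were examined as far as they were measured. MUP1 lies on chromosome VII between YGR054W and RSC1, a chromatin remodelling subunit gene. YGR054W was at -0.003 on met28, -0.147 on cbf1 and -0.035 on met31, and RSC1 at 0.181, -0.022 and -0.072, both in no tail. MUP3 lies on chromosome VIII between YHL037C and VMR1, a vacuolar transporter gene. YHL037C was listed at 0 on met28 and cbf1 and was at 0.171 on met31, in the high tail and opposite to MUP3. VMR1 was at 0.038 on met28 and 0.109 on met31, in no tail, and listed at 0 on cbf1. CBP2, the ORF beyond YHL037C, was at 0.684 on met28, in the high tail like MUP3. It was at 0.037 on cbf1 and -0.063 on met31, in no tail. CBP2 was singled out after its values were seen. SBP1, the ORF beyond VMR1, was at -0.06 on met28, -0.163 on cbf1 and -0.04 on met31, in no tail. MCO32 and LST7, the ORFs beyond those beside MUP1, were listed at 0 on met28 and cbf1, and were in no tail on met31.

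Few ORFs had the full pattern of MUP1, in the high tail on met28 and cbf1 and in the low tail on met31. There were 7 among 4974 ORFs measured on these 3 arrays: MUP1, SAM3, MMP1, STR3, ADI1, MXR1 and TMA10. Since met28 and cbf1 carry the same reference label, these columns may share reference RNA, and the values are given side by side as a description. ADI1, a methionine salvage gene, was at 0.547 on met28, 0.371 on cbf1 and -0.154 on met31. MXR1, the methionine sulfoxide reductase gene, was at 0.397, 0.388 and -0.233. TMA10, which encodes a ribosome-associated protein, was at 0.317, 0.433 and -0.299. On met31 SAM3 was the fourth lowest ORF and TMA10 the 7th lowest. On the array labelled met32, STR3 alone of the 7 was in a tail, at 0.164. The opposite pattern was found once, in YDR491C (-0.21, -0.486 and 0.249), which was looked up after its values were seen. MUP3 missed the pattern through its value on cbf1.

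**Figure D4:**
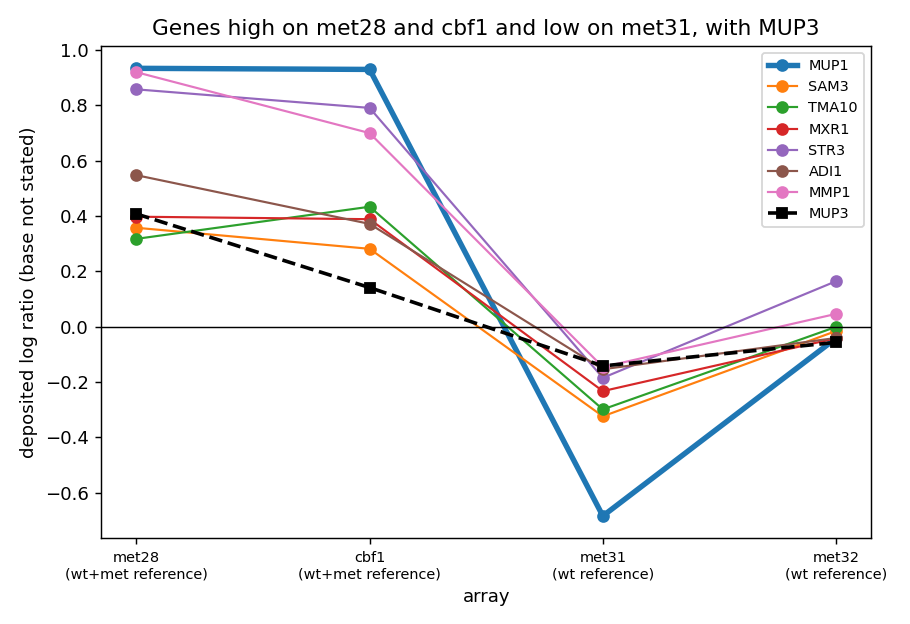
Deposited log ratio (y axis, base not stated) on the 4 arrays (x axis, with the reference of each) for the 7 ORFs in the high tail on met28 and cbf1 and the low tail on met31, and for MUP3 (dashed). All lines drop from positive values on met28 and cbf1 to negative ones on met31, and MUP1 has the widest span, from 0.933 to -0.684.

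By Euclidean distance of the deposited values over the 4 arrays, among the 4661 ORFs measured on all of them, the genes nearest to MUP1 were STR3 (distance 0.563), MMP1 (0.592) and OPT1 (0.669). OPT1, an oligopeptide and glutathione transporter gene, was at 0.735 on met28, 0.869 on cbf1 and -0.051 on met31. The next were DUG3, BDS1, ADI1, TMA10, MXR1, MHT1 and AGP3, at distances of 0.821 to 0.897. DUG3, a glutathione degradation gene, was at 0.649 on met28, 0.527 on cbf1 and -0.027 on met31. BDS1, a sulfatase gene, was at 0.808, 0.529 and 0.029, and MHT1, the gene of the methyltransferase that makes methionine from S-methylmethionine, at 0.595, 0.46 and -0.006. On the met31 array alone, STR3 was 0.499 above MUP1, against the distance of 0.563 over all 4 arrays.

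For MUP3, whose values are moderate, the nearest ORFs were CSS3 (distance 0.0673), AGP2 (0.113), the splicing factor gene CWC27 (0.125), the biotin transporter gene VHT1 (0.142) and COX10 (0.142), which encodes an enzyme of heme A synthesis. CSS3 was at 0.386 on met28, 0.122 on cbf1 and -0.103 on met31. AGP2 was at 0.362, 0.161 and -0.045. By this distance, MUP1 was not among the 5 nearest ORFs, nor was any other gene of the sulfur lists. Other measures differed. With the arrays divided by the robust SD, MUP3 was the 10th nearest ORF to MUP1. By correlation, SAM1 of the methyl cycle list was the 5th nearest to MUP3.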

How the data were processed

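Arrays with 2 dyes compared RNA of 4 yeast deletion strains with that of wild type, with at least 2 biological samples per strain per the labels' protocols but 1 deposited column each. The authors deposited 1 signed value with at most 3 decimals per ORF and strain, taken here as a log ratio. Base, centring, background correction, dye orientation and averaging are not stated in those sources, and intensities were not used here, so nothing is said of signal over background. Having 1 column per strain limits the precision.

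Exact zeros (1018 on met28, 877 on cbf1, 367 on met31, 378 on met32) were far more frequent than values next to 0 (27.8, 19.4, 51.0 and 43.9 on average per step of 0.001) and were treated as not measured. Values were ranked within arrays, with tails of 2.5%. Symbols and gene order came from a RefSeq table of assembly R64, which lists 5774 of the 6260 ORFs. Its coordinates were not used. Promoter and protein sequences were not analysed here.

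The members, the 8 gene lists and the settings were chosen with earlier results of these data known. Named genes are the members, the deleted genes, the transport list, and up to 4 genes of each other list with the largest absolute values. The 10 ORFs nearest to MUP1, the 5 nearest to MUP3, the ORFs with the tail pattern of MUP1 and direct neighbours are also named. YDR491C and the ORFs beyond the direct neighbours were added after their values were seen. The distance and tail steps were run on shuffled columns with planted values larger in size than any deposited one. Recovery at the sizes seen here was not tested. Python 3.11.15, pandas 2.3.3, numpy 2.4.6 and matplotlib 3.10.9 were used.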

Additional observations from a re-analysis of the deposited data

Results flagged for a closer look

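The values of MUP1 and MUP3 point in opposite directions in different deletion strains. MUP1 was at 0.933 on met28 and 0.929 on cbf1 against -0.684 on met31, and MUP3 at 0.407 and 0.141 against -0.142. The difference was not tested, since each strain has 1 column, and the strains with positive values are also those set against wt+met.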

How the results depend on the processing

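The signs of MUP1 and MUP3 on met28, cbf1 and met31 held with zeros counted as values, with tails of 1% or 5%, after median centring, after division by the robust SD and over ORFs measured on all 4 arrays, and so did the tail calls of MUP1. MUP3 on met31 (-0.142) was outside tails of 1%, and its difference of 0.198 between cbf1 and met32 came into tails of 5%, while with the met32 sign turned it was 0.084, with 18.8% of ORFs higher. Centring turned the MUP1 difference between met28 and cbf1 to -0.0315. In robust SD units MUP1 minus MUP3 was 7.18 on cbf1, 6.76 on met28, 0.25 on met32 and -10.4 on met31. With the met32 sign turned, MUP1 was at 0.042, MUP3 at 0.057 and their difference at -0.015. With tails of 1%, 2 genes of the full sulfur amino acid transport list of 10 in place of 4 were low on met31, and 2 ORFs in place of 7 (MUP1 and STR3) had the tail pattern; with tails of 5% there were 8, including those 7. Scaled distances kept 7 of the 10 ORFs nearest to MUP1 and 3 of the 5 nearest to MUP3, and correlation over 4 arrays, which ignores size, kept 2 and 0. Promoter motif and protein comparisons were not run. No paired analysis was possible because each strain has 1 column, and for the same reason no replicate could be left out.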
